A study of Homo sapiens with 6 samples.

Results

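The matrix metalloproteinases *MMP1*, *MMP2*, *MMP3*, *MMP9*, *MMP13* and *MMP14* and the tissue inhibitors of metalloproteinases *TIMP1*, *TIMP2*, *TIMP3* and *TIMP4* were followed in MDA-MB-231 cells that carried a circular RNA plasmid. These 10 genes were taken by symbol from the array's annotation, without a filter on their values, but were chosen with earlier results of these data known. Of them, 9 had a named probe set, each of them 1 among the 21448 probe sets of the array, 17709 of which carried 1 gene symbol. *TIMP2* had no named probe set and was not analysed here. MDA-MB-231 is a human breast cancer cell line without estrogen, progesterone or HER2 receptors, and it is used as a model of invasive growth. All cells were grown in DMEM with fetal bovine serum and were transfected with a commercial transfection reagent. In 1 group the plasmid was the empty vector, and in the other it was pCIRC2T7-*circAAGAB*, which expresses *circAAGAB*, a circular RNA made from exons of the *AAGAB* gene. Total RNA was taken 24 h after transfection and measured on Clariom S arrays, with 3 arrays in each group, numbered 1 to 3 in the labels. The transfection was transient, and no source used here gives the share of cells that took up the plasmid. Each array reads RNA of all cells together, so fewer cells that express a gene and less RNA per cell cannot be told apart.

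Matrix metalloproteinases (MMPs) are zinc-dependent endopeptidases that cut the proteins of the extracellular matrix. Most are secreted as inactive proenzymes and become active when their prodomain is cut off, and some are held in the plasma membrane. TIMPs bind the catalytic site of active MMPs and block it. In breast tumors, the balance between both families is known to bear on invasion through basement membrane and collagen. RNA levels do not show how much of an enzyme is active. Several MMP genes lie side by side in a cluster on chromosome 11, and promoters of many of them carry a site for AP-1, the dimer of FOS and JUN proteins, next to a TATA box.

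Because such sites are known from MMP promoters, the members' own promoters were read. The 250 bases before the RefSeq start of 3 members with a signal far above background are printed here, 5′ to 3′ on the strand of the gene, with matches to the searched motifs in capitals. In build GRCh38.p14 they lie on the plus strand at chr14:22836335-22836584 for *MMP14*, chrX:47582186-47582435 for *TIMP1* and chr22:32801455-32801704 for *TIMP3*.
MMP14: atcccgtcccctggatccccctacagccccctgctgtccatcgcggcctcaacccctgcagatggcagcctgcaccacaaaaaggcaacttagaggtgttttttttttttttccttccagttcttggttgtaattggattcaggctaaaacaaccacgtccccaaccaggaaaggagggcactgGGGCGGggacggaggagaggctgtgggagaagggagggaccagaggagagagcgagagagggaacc
TIMP1: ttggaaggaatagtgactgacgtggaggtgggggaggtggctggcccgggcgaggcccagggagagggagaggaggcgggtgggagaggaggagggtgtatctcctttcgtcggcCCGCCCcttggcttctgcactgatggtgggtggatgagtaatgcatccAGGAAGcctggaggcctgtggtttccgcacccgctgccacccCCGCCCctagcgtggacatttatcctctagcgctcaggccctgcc
TIMP3: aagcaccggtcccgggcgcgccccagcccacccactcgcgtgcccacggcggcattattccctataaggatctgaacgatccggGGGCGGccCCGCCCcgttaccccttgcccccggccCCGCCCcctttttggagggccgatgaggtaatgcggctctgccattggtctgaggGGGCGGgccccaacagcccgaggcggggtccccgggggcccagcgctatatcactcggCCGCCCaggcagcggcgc
The motifs were searched on both strands of the RefSeq window from 250 bases before to 50 bases after the start, for which 4 of the 10 members had an entry (*MMP14*, *TIMP1*, *TIMP3* and *TIMP4*). They were the AP-1 site TGANTCA, the TATA box TATAAA, the ETS core AGGAAG and the GC box GGGCGG, of which the GC box was added after the sequences were seen. The matches in these windows do not overlap each other.

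None of the 4 windows held TGANTCA or TATAAA, which 7.71% and 11.5% of 35116 RefSeq promoter windows held. *MMP14* was the only MMP among them, and *MMP1*, *MMP2*, *MMP3*, *MMP9* and *MMP13* had no window to search. The capitals in *MMP14* mark 1 GC box that begins 66 bases before the start. In *TIMP1* they mark a GC box on the minus strand, read here as CCGCCC, at -135, an ETS core at -87 and a second minus-strand GC box at -45, counted from the start. In *TIMP3* they mark 5 GC boxes, at -166, -158, -131, -76 and -18. The *TIMP4* window held an ETS core at -76 and a GC box at -57. Over all windows, 33.6% held the ETS core and 45% the GC box. GC content was 55% in *MMP14*, 65% in *TIMP1*, 64% in *TIMP4* and 72.7% in *TIMP3*, with 10, 16, 12 and 31 CpG dinucleotides. Among 11 other MMP genes with a window, *MMP7*, *MMP10* and *MMP20* held both the AP-1 site and the TATA box. The TATA box was found in 6 of the 11, the ETS core in 1 and the GC box in 4. A match describes letters only, and no match says nothing about the factor.

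Array medians lay between 5.70 and 5.80 on the log2 scale. The SD over all probe sets was 2.08 and 2.11 on the arrays of replicate number 1 and between 2.17 and 2.21 on the other 4, from which both arrays of number 1 stood apart. *AAGAB* was 7.66 ± 0.09 (SD, n = 3) with the empty vector and 11.28 ± 0.41 (SD, n = 3) with *circAAGAB*, a difference of 3.61 on the log2 scale, and its probe set does not tell plasmid RNA from that of the gene. It was the only probe set with an adjusted p under 0.05 in limma (adjusted p = 0.00319), which is 0.00466% of 21448. As a gauge of background served 347 olfactory receptor genes, whose known site of use is the nose, and the 95th percentile of their means was 4.66 on the log2 scale. Over all probe sets, 31.6% had a mean at or below this gauge. All 6 marker genes fixed for MDA-MB-231 lay above it, from *EGFR* at 8.69 to *VIM* at 11.56 with the empty vector. Of 6 luminal markers, *CDH1*, *PGR*, *ESR1* and *FOXA1* lay below it on average, while *GATA3* was at 6.11 and *EPCAM* at 7.71.

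First, the level of each gene was set against this gauge. *MMP1*, *MMP14*, *TIMP1*, *TIMP3* and *TIMP4* lay above it on 6 of 6 arrays, and *MMP2*, *MMP3* and *MMP13* lay below it on 6 of 6. *MMP9* lay above it on 4 arrays and just below it on 2. A signal above the gauge does not by itself show that a gene is expressed. The signal of 1 probe set cannot be ranked against that of another, because their probes bind with different strength. In the plot of signal by gene, the values are therefore to be read against the gauge and between the groups of 1 gene.

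**Figure D1:**
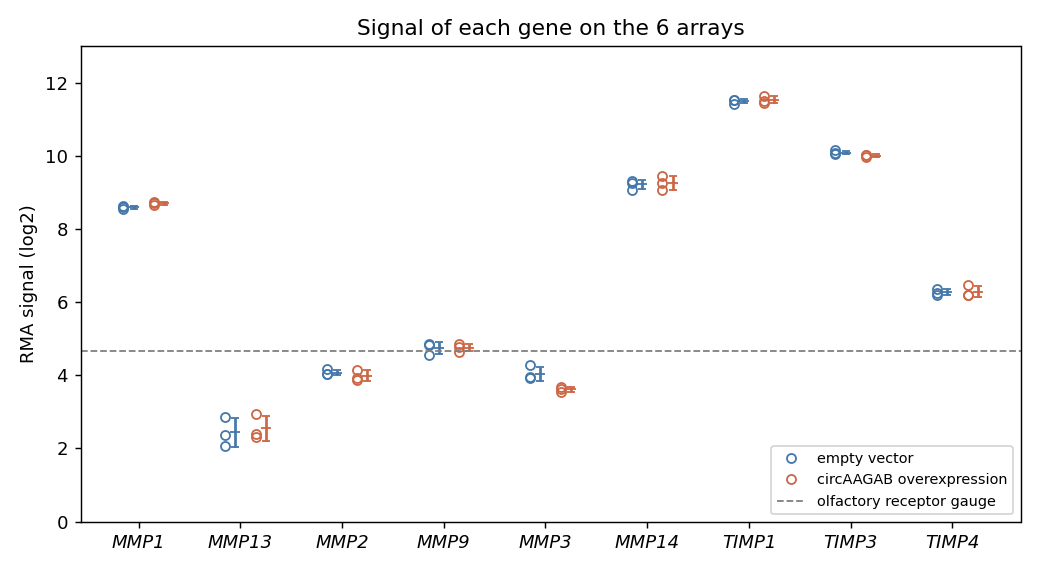
RMA signal (log2) of the 9 genes on the 6 arrays. Circles are single arrays, the bars beside them the mean and SD of 3 arrays of a group, and the dashed line the olfactory receptor gauge at 4.66. *MMP2*, *MMP3* and *MMP13* lie below the line on all arrays.

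To examine the interstitial collagenases, which cut fibrillar collagen, *MMP1* and *MMP13* were compared between the groups. *MMP1* had a signal of 8.56, 8.59 and 8.62 with the empty vector and 8.74, 8.71 and 8.65 with *circAAGAB*, for replicate numbers 1, 2 and 3. Every *circAAGAB* array was higher than every empty vector array, by a narrow margin between 8.62 and 8.65. The difference was 0.11 on the log2 scale (standard error 0.13, 95% confidence interval -0.20 to 0.41, adjusted p = 1.00 from limma). Over all probe sets, 3.87% had groups that did not overlap with *circAAGAB* higher, and the *MMP1* groups overlapped once the arrays were quantile normalized. The spread of *MMP1* within groups was among the smallest on the array, at the 0.634th percentile of within-group SDs.

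*MMP13*, the collagenase with a preference for type II collagen, had a signal of 2.87, 2.37 and 2.08 with the empty vector and 2.40, 2.31 and 2.93 with *circAAGAB*. These values lay far below the gauge and the groups overlapped. The 6 arrays spanned 0.85 on the log2 scale, and the 3 same-numbered pairs differed by -0.47, -0.06 and 0.85. The difference between the groups was 0.11 (standard error 0.25, 95% confidence interval -0.46 to 0.68, adjusted p = 1.00 from limma), the widest interval among the 9 genes. At such a signal a change of the transcript could go undetected.

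Next, the gelatinases, which cut denatured collagen and type IV collagen of basement membranes, were compared. *MMP2* had a signal of 4.03, 4.02 and 4.16 with the empty vector and 4.15, 3.93 and 3.88 with *circAAGAB*. All of these values lay below the gauge. The groups overlapped through the *circAAGAB* array of replicate number 1, and without this array they no longer did. With fewer arrays groups separate more easily, and the share of all probe sets without overlap was not counted in that setting. The difference was -0.09 (standard error 0.15, 95% confidence interval -0.42 to 0.25, adjusted p = 1.00 from limma), and it ran from -0.17 without *circAAGAB* replicate 1 to -0.03 without *circAAGAB* replicate 3. *MMP9* had a signal of 4.84, 4.55 and 4.84 with the empty vector and 4.85, 4.65 and 4.77 with *circAAGAB*. Both arrays of replicate number 2 were the lowest of their group, and these were the arrays below the gauge. The difference between the groups was 0.02 (standard error 0.15, 95% confidence interval -0.34 to 0.37, adjusted p = 1.00 from limma), and its sign turned when empty vector replicate 2 or *circAAGAB* replicate 1 was left out.

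The stromelysin *MMP3*, which cuts proteoglycans, laminin and fibronectin and can activate other proenzymes, showed the largest difference among the 9 genes. Its signal was 4.27, 3.92 and 3.94 with the empty vector and 3.63, 3.55 and 3.68 with *circAAGAB*. All 3 *circAAGAB* arrays were lower than all empty vector arrays, and all 6 arrays lay below the gauge. The difference was -0.43 on the log2 scale (standard error 0.15, 95% confidence interval -0.78 to -0.07), from 4.04 ± 0.20 (SD, n = 3) to 3.62 ± 0.07 (SD, n = 3). The unadjusted p from limma was 0.0249, and 2.18% of all probe sets had an unadjusted p under 0.05. The adjusted p was 1.00. Groups that did not overlap with *circAAGAB* lower were found in 4.04% of all probe sets. The same-numbered pairs differed by -0.64, -0.37 and -0.26, and the empty vector array of replicate number 1 was the highest of all. Without this array the difference was -0.31, and the unadjusted p was no longer under 0.05 without this array or without *circAAGAB* replicate 2.

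The membrane-type *MMP14* (MT1-MMP), which cuts collagen at the cell surface and activates pro-MMP2, had a signal of 9.32, 9.26 and 9.06 with the empty vector and 9.45, 9.07 and 9.27 with *circAAGAB*. The groups overlapped, and the highest array of each group was that of replicate number 1. The difference was 0.05 (standard error 0.16, 95% confidence interval -0.32 to 0.42, adjusted p = 1.00 from limma). Its sign turned when empty vector replicate 3 or *circAAGAB* replicate 1 was left out.

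**Figure D2:**
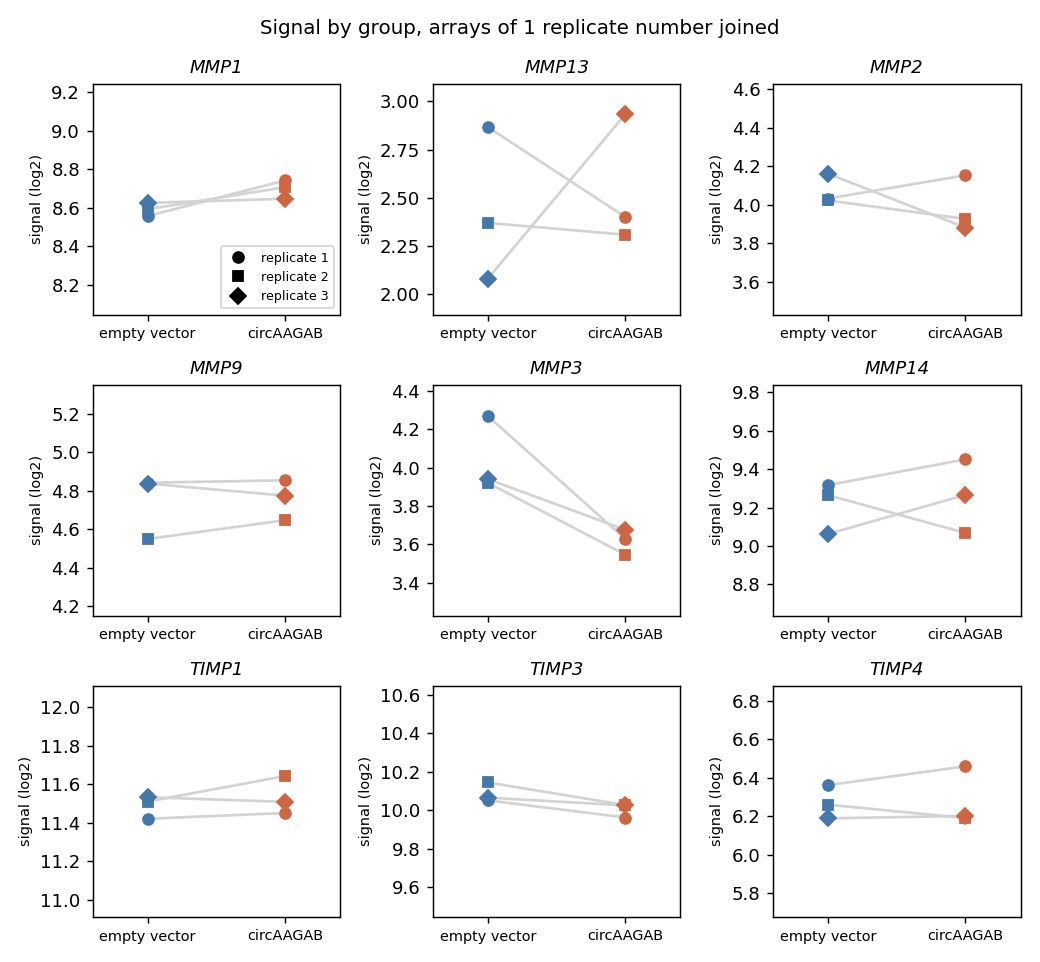
RMA signal (log2) of each gene by group, with 1 point per array and lines that join arrays of the same replicate number. Each panel spans the same range on its axis. All 3 lines of *MMP3* fall, from 4.27, 3.92 and 3.94 to 3.63, 3.55 and 3.68. Those of *TIMP3* fall too, those of *MMP1* rise, and those of each other gene run both ways.

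The inhibitors were then compared. *TIMP1*, a secreted inhibitor that also binds pro-MMP9, had a signal of 11.42, 11.51 and 11.53 with the empty vector and 11.45, 11.64 and 11.51 with *circAAGAB*. The groups overlapped, with both arrays of replicate number 1 below the other 4. The difference was 0.05 (standard error 0.14, 95% confidence interval -0.27 to 0.37, adjusted p = 1.00 from limma), and it was -0.01 without *circAAGAB* replicate 2. *TIMP3*, which is held in the matrix and also blocks ADAM proteases, had a signal of 10.05, 10.14 and 10.07 with the empty vector and 9.96, 10.03 and 10.03 with *circAAGAB*. Every *circAAGAB* array was lower, by a narrow margin between 10.03 and 10.05, and the groups overlapped once each array was centred on its median. Such a lack of overlap, with *circAAGAB* lower, was found in 4.04% of all probe sets. The difference was -0.08 (standard error 0.13, 95% confidence interval -0.39 to 0.22, adjusted p = 1.00 from limma). *TIMP3* varied as little within groups as *MMP1* did, at the 0.774th percentile of within-group SDs.

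*TIMP4*, an inhibitor best known from heart muscle, had a signal of 6.36, 6.26 and 6.19 with the empty vector and 6.46, 6.19 and 6.20 with *circAAGAB*. The groups overlapped, and both arrays of replicate number 1 were higher than the other 4. The difference was 0.01 (standard error 0.15, 95% confidence interval -0.33 to 0.36, adjusted p = 1.00 from limma), and it was -0.03 without both of these arrays.

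Counting the 9 genes together, 6 were higher and 3 lower with *circAAGAB*, and 0 passed limma's adjusted test. Without empty vector replicate 3 or without *circAAGAB* replicate 1, 3 were higher and 6 lower, and over all probe sets 10643 were higher and 10805 lower. An unadjusted p under 0.05 was reached by *MMP3* alone, against 2.18% of all probe sets. With the methods' test, *MMP1* and *MMP3* had an unadjusted p under 0.05, against 4.14% of all probe sets, and 0 passed after adjustment. By a fold change of at least 1.5 with an unadjusted p under 0.05, 0 of 9 were called, against 0.373% of all probe sets. The median difference of the 9 genes was 0.02 on the log2 scale, and that of all probe sets was -0.00165. The median size of the difference, sign aside, was 0.082 for the 9 genes and 0.115 for all probe sets. For 7 genes the 95% confidence interval lay inside a 1.5-fold change in both directions, and the exceptions were *MMP3* and *MMP13*. Of these 7, *MMP2* lay below the gauge and *MMP9* near it, where a larger change of the transcript could go undetected. In the plot of differences with their intervals, only that of *MMP3* leaves out 0.

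**Figure D3:**
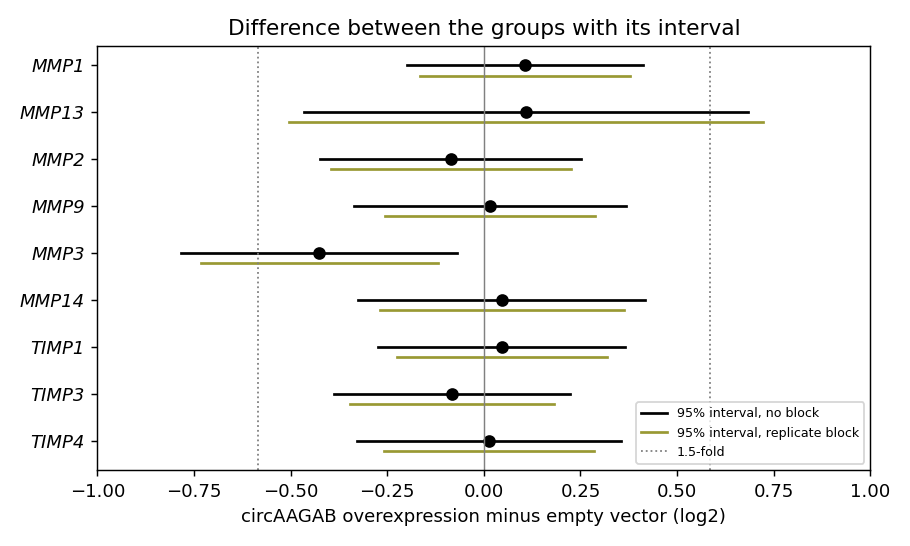
Log2 difference of *circAAGAB* overexpression from the empty vector for each gene. Points are differences, black lines their 95% confidence intervals from limma, olive lines the same with the replicate number as a block, and dotted lines mark a 1.5-fold change. The interval of *MMP3* runs from -0.78 to -0.07 and crosses the 1.5-fold line.

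The replicate number was also tested, because it set arrays apart. With the group in the fit, the unadjusted p for the replicate number was under 0.05 in 0 of the 9 genes and in 25.7% of all probe sets. After adjustment it passed in 0 of 9 genes and in 0% of all probe sets. Both arrays of replicate number 1 were higher than the other 4 in *MMP14*, in *TIMP4* and, by a margin below the rounding used here, in *MMP9*, and lower in *TIMP1*. Over all probe sets, 26.1% were higher in this way and 19.5% lower. The means of replicate numbers 1, 2 and 3 were 9.38, 9.17 and 9.16 for *MMP14*, and 11.43, 11.58 and 11.52 for *TIMP1*. With the replicate number as a block, *MMP3* was the 1 gene of 9 with an unadjusted p under 0.05, against 6.79% of all probe sets.

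To follow an enzyme with the inhibitor that binds its proenzyme, the log2 signal of *TIMP1* was subtracted from that of *MMP9* on each array. The value has no meaning as a ratio of molecules, since the probes differ, and only its change between arrays can be read. It was -6.58, -6.96 and -6.69 with the empty vector and -6.60, -7.00 and -6.73 with *circAAGAB*. Each *circAAGAB* array lay slightly below the empty vector array of its number, and the lowest values were those of replicate number 2. The groups differed by -0.03 (exact permutation test, two-sided, p = 0.7, where 0.1 is the smallest p that 3 against 3 arrays allow), and the sign turned with quantile normalization. The pairs of *MMP2* and *MMP14* with *TIMP2* were not analysed here.

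The genes beside *MMP1*, *MMP3* and *MMP13* were then read across the MMP cluster of chromosome 11. This stretch was chosen after its values were seen. In the order of the RefSeq annotation it holds *MMP7*, *MMP20*, *MMP27*, *MMP8*, *MMP10*, *MMP1*, *MMP3*, *MMP12* and *MMP13*, and all 9 were measured. Their mean signals ran from 2.00 for *MMP7* to 8.64 for *MMP1*. Only *MMP1* and *MMP10*, a second stromelysin at 4.91, had a mean above the gauge. With *circAAGAB*, 7 of the 9 were higher and 2 lower, with a median difference of 0.05. The groups did not overlap in *MMP1* (higher, against 3.87% of all probe sets) and *MMP3* (lower, against 4.04%), and 0 passed the adjusted test.

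Of 17 further MMP genes, 16 were measured and 7 had a mean above the gauge, with empty vector means from 1.97 to 5.39. No gene reached an unadjusted p under 0.05 (0 of 16), against 2.18% of all probe sets. With *circAAGAB*, 10 were higher and 6 lower, and the median difference was 0.03. This median ran from -0.14 to 0.14 when single arrays were left out. The smallest p belonged to *MMP16*, a membrane-type enzyme. Its signal was 5.34, 5.30 and 4.80 with the empty vector and 4.54, 4.81 and 4.89 with *circAAGAB*, a difference of -0.40 (limma, standard error 0.19, adjusted p = 1.00) between groups that overlapped.

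Among the ADAM and ADAMTS proteases, relatives that shed cell surface proteins or cut matrix proteoglycans, 14 of 14 were measured. An unadjusted p under 0.05 was reached by 0 of 14, against 2.18% of all probe sets. With *circAAGAB*, 2 were higher and 12 lower, and the median difference was -0.15. Their medians ran from -0.21 to -0.13 when single arrays were left out. *ADAMTS2*, which trims procollagen, had the smallest p. It was 4.69 ± 0.05 (SD, n = 3) with the empty vector and 4.42 ± 0.29 (SD, n = 3) with *circAAGAB*, and 3 of its 6 arrays lay below the gauge.

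Among genes of plasminogen activation and the proprotein convertases, which lie upstream of many proenzymes, 11 of 14 were measured. An unadjusted p under 0.05 was reached by 0 of 11, against 2.18% of all probe sets. With *circAAGAB*, 7 were higher and 4 lower, and the median difference was 0.04. This median ran from -0.01 without *circAAGAB* replicate 2 to 0.09 without empty vector replicate 2, and it was -0.03 without both arrays of replicate number 1. The smallest p belonged to *PLG*, the plasminogen gene, which is made chiefly in liver. Its signal of 3.20, 3.47 and 3.25 with the empty vector and 3.62, 3.68 and 3.59 with *circAAGAB* lay below the gauge on 6 arrays. The groups did not overlap (higher, against 3.87% of all probe sets). With the replicate number as a block, *PLG* had an unadjusted p under 0.05, against 6.79% of all probe sets, and did not pass after adjustment. The urokinase gene *PLAU*, named here after its values were seen, was 10.26 ± 0.04 (SD, n = 3) with the empty vector and 10.15 ± 0.05 (SD, n = 3) with *circAAGAB*, and its receptor *PLAUR*, named likewise, was 9.55 ± 0.18 (SD, n = 3) and 9.70 ± 0.19 (SD, n = 3).

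Of the surface partners and regulators of MMPs, 17 of 17 were measured, with 8 higher and 9 lower. The median difference was -0.03 (-0.02 to 0.05 when single arrays were left out). An unadjusted p under 0.05 was reached by 0 of 17, against 2.18% of all probe sets. With the replicate number as a block, *TFPI2* and *THBS1* had an unadjusted p under 0.05, against 6.79% of all probe sets, and 0 passed after adjustment. *THBS1*, which encodes the matrix protein thrombospondin and is named here after its values were seen, was 10.65 ± 0.19 (SD, n = 3) with the empty vector and 10.25 ± 0.22 (SD, n = 3) with *circAAGAB*, lower in 3 of 3 same-numbered pairs, and its groups overlapped. Without the block, the smallest p belonged to *TFPI2*, a secreted inhibitor of serine proteases such as plasmin. *TFPI2* had a signal of 9.13, 9.06 and 9.04 with the empty vector and 9.48, 9.31 and 9.38 with *circAAGAB*. All *circAAGAB* arrays were higher, against 3.87% of all probe sets, with a difference of 0.31 (limma, standard error 0.14, adjusted p = 1.00). *RECK*, a membrane-anchored inhibitor of MMPs named here after its values were seen, was 5.96 ± 0.13 (SD, n = 3) and 6.06 ± 0.06 (SD, n = 3).

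Among collagens, laminins and other substrates, 17 of 22 were measured, with 4 higher and 13 lower. An unadjusted p under 0.05 was reached by 0 of 17, against 2.18% of all probe sets. The median difference was -0.16, and it was -0.03 without empty vector replicate 1. With the replicate number as a block, *DCN*, the gene of the proteoglycan decorin, had an unadjusted p under 0.05, against 6.79% of all probe sets. Its signal lay below the gauge on 6 arrays, and 0 substrates passed after adjustment. Without the block, *FN1*, the fibronectin gene, had the smallest p. Its signal was 8.56, 8.44 and 8.54 with the empty vector and 8.18, 8.13 and 8.41 with *circAAGAB*. The groups did not overlap (lower, against 4.04% of all probe sets), with a difference of -0.28 (limma, standard error 0.15, adjusted p = 1.00).

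Transcription factors with known sites in MMP promoters were the list with the most low p-values. All 23 were measured and lay above the gauge on average, 15 higher and 8 lower with *circAAGAB*, with a median difference of 0.06 that ran from 0.04 to 0.15 when single arrays were left out. Of these, 4 had an unadjusted p under 0.05, all higher, against 2.18% of all probe sets in either direction, and 0 passed the adjusted test. The list was chosen with differences of these genes already known. *EGR1*, an immediate-early zinc finger factor, had a signal of 7.48, 7.42 and 7.35 with the empty vector and 8.48, 8.59 and 8.87 with *circAAGAB*, which is 1.24 higher on the log2 scale (standard error 0.16), with an adjusted p of 0.478 in limma. *ATF3*, which is induced by stress and pairs with JUN, differed by 0.88 (standard error 0.16), *JUN* by 0.49 (standard error 0.16) and *FOS* by 0.46 (standard error 0.17), each with an adjusted p of 1.00 from limma. The groups did not overlap in these 4 genes and in *FOSL1*, *ETS2* and *SNAI2*, 7 of the 23 in all with *circAAGAB* higher, against 3.87% of all probe sets. *FOSL1*, another AP-1 gene named here after its values were seen, was 10.44 ± 0.05 (SD, n = 3) and 10.59 ± 0.11 (SD, n = 3). These factors and the MMPs were read on the same arrays, at 1 time point, and no link between them was tested.

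**Figure D4:**
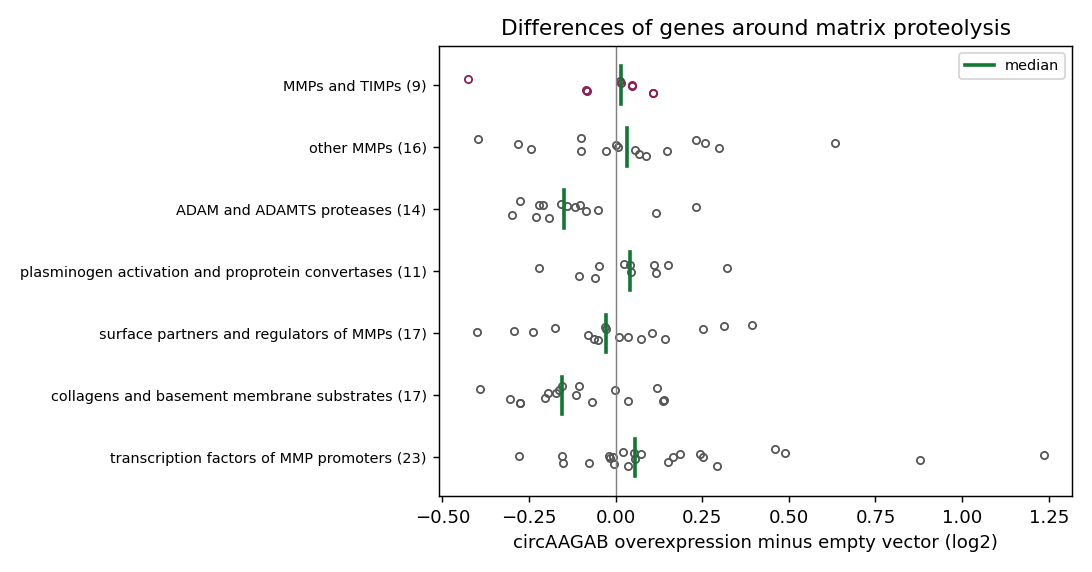
Log2 difference of *circAAGAB* overexpression from the empty vector for every measured gene of each list, with the number measured in parentheses. Circles are genes and green lines list medians. The 9 MMPs and TIMPs lie between -0.43 and 0.11, and the 4 rightmost transcription factors at 0.46, 0.49, 0.88 and 1.24.

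To name genes with a pattern like that of *MMP3*, the member with the smallest p, deviations from a gene's own mean over the 6 arrays were compared. Among 12462 named genes with a mean above the gauge, the closest were *MTMR4*, *HECTD3* and *SH3BGR*, with root mean square differences of 0.036, 0.041 and 0.047 against a median of 0.307. *MTMR4*, a phosphoinositide phosphatase of endosomes, differed by -0.42 between the groups, *HECTD3*, a ubiquitin ligase, by -0.35 and *SH3BGR* by -0.37. All 3 had their highest value on empty vector replicate 1, as *MMP3* did. The genes were picked for this likeness, so their differences are a description of the same 6 arrays.

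Markers of other cell types were read for the same arrays. Of 5 white blood cell markers measured, 3 had a mean above the gauge. *CD14* and *CSF1R* lay above it on 6 of 6 arrays, at 5.86 and 6.10 with the empty vector, and the defining marker *PTPRC* lay below it on 6 of 6. Their summed linear signal was 168 to 223 with the empty vector and 189.6 to 268 with *circAAGAB*. Of 6 fibroblast markers, 3 had a mean above the gauge, with sums of 286 to 333 and 247 to 409. *COL1A1* and *COL1A2* lay above it on 6 arrays, at 6.06 and 7.35 with the empty vector, while *DCN* and *LUM* lay below it on 6. *PDGFRA*, a growth factor receptor of this list, differed by 0.40 with an unadjusted p of 0.0426 from limma. Over all probe sets, 2.18% had an unadjusted p under 0.05. Of 4 endothelial markers 2 had a mean above the gauge, with sums of 138 to 166 and 131 to 166. These were *VWF* and *CDH5*, at 6.29 and 5.12 with the empty vector and above the gauge on 6 arrays, while *KDR* lay below it on 6. In each of these lists the ranges of the groups overlapped, and 0 markers passed the adjusted test. All 6 arrays hold RNA of 1 cultured cell line, so these signals are not read as other cell types. A signal above the gauge does not by itself show that a gene is expressed. That limit holds for *TIMP4* too, at 6.27 with the empty vector. Whether such signals are expression or background was not tested. Of the 6 MDA-MB-231 markers, *AXL* was the 1 gene with an unadjusted p under 0.05, against 2.18% of all probe sets, and 0 passed the adjusted test. *AXL* was 10.33 ± 0.09 (SD, n = 3) with the empty vector and 10.00 ± 0.03 (SD, n = 3) with *circAAGAB*. The luminal marker of smallest p, *PGR*, lay below the gauge on 6 arrays, at 1.77 ± 0.26 (SD, n = 3) and 2.04 ± 0.16 (SD, n = 3).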

How the data were processed

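RNA of 6 MDA-MB-231 samples, 3 with the empty vector and 3 with the *circAAGAB* plasmid, was labeled and hybridised to Clariom S arrays. The methods speak of independent experiments for quantitative data in general, and neither they nor the labels state whether these arrays stand for separate cultures. The p-values measure only the spread between these arrays, which may be technical, and their number limits the precision. After robust multichip averaging (RMA), the authors deposited 1 log2 value per probe set. The software version and genome build were not given in the sources used here. Groups were taken from the labels, and gene symbols from the platform annotation.

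For each of 21448 probe sets the difference (*circAAGAB* overexpression minus empty vector) was fitted with limma 3.58.1 in R 4.3.3, two-sided, without a filter on dim probe sets, with Benjamini-Hochberg adjustment over all probe sets and a threshold of 0.05. The methods' test was the unpaired Student test on the same values. The methods give it for group comparisons in general and name no test for the arrays. The MMP9 and TIMP1 difference was compared with an exact permutation test, as given in the report.

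Same-numbered arrays of the groups deviated together from their group means, with correlations of 0.60, 0.19 and 0.55 over all probe sets for numbers 1, 2 and 3, each over 0.1. Differently numbered arrays correlated between -0.57 and 0.29, and for number 2 both arrays correlated more with an array of number 3 (0.25 and 0.29). The pairing comes from the labels' numbers and this check, and the replicate number was used as a block in an alternative fit. Other alternatives were quantile normalization, centring each array on its median, a filter at the olfactory receptor gauge, the methods' test, the mean over a gene's probe sets and leaving out each array. Leaving out both arrays of replicate number 1 was added after seeing the data.

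The text names every member with a named probe set, the genes of each other list with an unadjusted p under 0.05 (at most 4) or else the 1 of smallest p, *AAGAB*, and the 3 genes most like the member of smallest p. Any other gene named was chosen after its values were seen. Members and lists were chosen with earlier results of these data known. A planned comparison of protein motifs and the pairs with *TIMP2* were not run.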

Additional observations from a re-analysis of the deposited data

How the results depend on the processing

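No member passed the adjusted test under any of the 13 alternatives, which used limma except for the methods' test. The lowest adjusted p among them was 0.586, for *MMP3*, whose adjusted p ran from 0.586 to 1.00. The mean over a gene's probe sets could not change the members' values, since each of the 9 has 1 probe set. The replicate block gave 0 members past the adjusted test, with an adjusted p of 0.724 for *MMP3*, and changed no call of the adjusted test. At an unadjusted p under 0.05 it called 1 gene more in the plasminogen list, 2 in the surface partner list and 1 among the substrates. Among the transcription factors it called 1 more, *SP1*, which was lower with *circAAGAB* (log2 difference -0.28). Over all probe sets, this threshold was reached by 6.79% with the block and by 2.18% without it. *MMP1*, *MMP2*, *MMP3* and *TIMP3* kept their direction in every setting that held them, the filter on dim probe sets leaving out *MMP2*, *MMP3* and *MMP13*. With single arrays left out, they ran from 0.085 to 0.133, from -0.168 to -0.032, from -0.487 to -0.313 and from -0.100 to -0.054. In the same way the log2 difference ran from -0.081 to 0.071 for *MMP9*, from -0.085 to 0.323 for *MMP13*, from -0.048 to 0.143 for *MMP14*, from -0.0082 to 0.088 for *TIMP1* and from -0.074 to 0.060 for *TIMP4*, so that the sign turned in each. For *MMP9* minus *TIMP1* it ran from -0.138 to 0.080, and it was 0.00995 with quantile normalization. Without both arrays of replicate number 1, a setting added after seeing the data, the *TIMP4* difference was -0.029. The number of members with an unadjusted p under 0.05 was 0 with the filter on dim probe sets, which removed *MMP3*, and 0 without empty vector replicate 1, without *circAAGAB* replicate 2 or without both arrays of replicate number 1. It was 2 with the methods' test. The share of all probe sets under this threshold was not counted in the settings that gave 0. The median of the plasminogen and convertase list was -0.033 without both arrays of replicate number 1. The causes were not tested. *MMP2*, *MMP3* and *MMP13* lay below the gauge, where array signal limits what can be measured.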
